A study of Mus musculus with 32 samples.

Results

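Il12b, Il12rb1, Xcr1, Ccl4 and Fasl are 5 mouse genes of the axis that runs from dendritic cells to type 1 lymphocytes, and their RNA was followed in whole lung. They were chosen by symbol among the 26305 Ensembl genes of a table of 54640 loci and genes, and all 5 have an identifier of their own there. The lungs came from 16 male C57BL/6J mice of genotype WT, aged 6 to 8 weeks, in 4 groups of 4 animals. The first received World Trade Center particulate matter (WTCPM, dust collected around Ground Zero) into the nose and rosoxacin, a quinolone antibiotic, at 5 mg/kg into the peritoneum. The second received WTCPM by the same route and dexamethasone, a synthetic glucocorticoid, at 0.1 mg/kg into the peritoneum. The third received WTCPM with no drug, and the healthy control mice received neither dust nor drug. The sources used here give neither the dust dose nor the times of exposure, treatment and tissue collection, and no group received a drug without dust. Each mouse carries its own animal number in the labels, was sequenced on 2 lanes and counts once.

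Dendritic cells take up material in the airways, carry it to T cells and secrete interleukin 12, which drives T cells and natural killer (NK) cells toward interferon gamma production, the type 1 response. Il12b encodes p40, the subunit shared by interleukin 12 and interleukin 23, and Il12rb1 encodes the receptor chain that both cytokines use. Xcr1 encodes the chemokine receptor that marks conventional type 1 dendritic cells, the subset known for presenting antigen to CD8 T cells, and its ligand Xcl1 is made by NK cells and CD8 T cells. Ccl4 (MIP-1 beta) is a chemokine that recruits lymphocytes and monocytes, and Fasl encodes Fas ligand, the protein with which cytotoxic lymphocytes trigger death in cells that bear Fas.

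On the mm10 build, with GENCODE release M21, Il12b (ENSMUSG00000004296.14) lies at chr11:44400063-44414033 on the plus strand and Ccl4 (ENSMUSG00000018930.3) at chr11:83662584-83664683 on the plus strand. Il12rb1 (ENSMUSG00000000791.9) lies at chr8:70808449-70821424 on the plus strand. Xcr1 (ENSMUSG00000060509.4) lies at chr9:123852315-123862029 on the minus strand and Fasl (ENSMUSG00000000817.10) at chr1:161780689-161788495 on the minus strand. All 5 are protein coding and none overlaps another annotated gene. Of the 50-base words in their transcripts, the share also found in another gene was 0 for Il12b, Ccl4 and Fasl, 0.263% for Il12rb1 and 1.63% for Xcr1.

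The RefSeq promoter table (GRCm38.p6) held 3 of the 5 genes. The 250 bases before each start are shown because these genes stand for the 3 cell functions described here, the dendritic cell cytokine, the dendritic cell receptor and the lymphocyte effector. Capitals mark matches on either strand to 6 motifs: the TATA box (read as TATANAA), the core of the kappa-B element known from the mouse Il12b promoter (read as GGGAATT), sites of AP-1 (TGANTCA), the GAS element bound by STAT factors (TTCNNNGAA), the glucocorticoid receptor half-site (AGAACA) and the core of NFAT sites (GGAAA).
Il12b, chr11:44399813-44400062, plus strand: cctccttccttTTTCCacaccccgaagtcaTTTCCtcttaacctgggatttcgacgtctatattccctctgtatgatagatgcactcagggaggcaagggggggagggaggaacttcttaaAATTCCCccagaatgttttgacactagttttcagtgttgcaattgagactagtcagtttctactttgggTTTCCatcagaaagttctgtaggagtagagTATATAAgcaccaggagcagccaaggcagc
Xcr1, chr9:123862030-123862279, minus strand: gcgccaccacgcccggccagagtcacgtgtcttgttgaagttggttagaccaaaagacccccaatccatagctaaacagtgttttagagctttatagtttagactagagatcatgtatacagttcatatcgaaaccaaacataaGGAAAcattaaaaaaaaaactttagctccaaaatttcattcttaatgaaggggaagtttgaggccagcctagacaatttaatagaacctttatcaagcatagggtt
Fasl, chr1:161788496-161788745, minus strand: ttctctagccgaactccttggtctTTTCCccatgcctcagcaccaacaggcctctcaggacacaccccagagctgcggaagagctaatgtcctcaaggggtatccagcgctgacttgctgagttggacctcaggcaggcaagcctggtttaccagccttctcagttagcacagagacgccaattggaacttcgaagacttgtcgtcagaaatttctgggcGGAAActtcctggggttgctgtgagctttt
The Il12b sequence held TATATAA at -30 to -24 and, on the minus strand, the kappa-B core at -129 to -123, counted from the start with -1 as the base before it. The TATA motif was in 10.4% of the 32851 promoters of that table and the kappa-B core in 3.08%. That core was searched because it was known from this gene. The NFAT core, which 55.6% of promoters held, was matched at 3 positions in Il12b, 1 in Xcr1 and 2 in Fasl. No letters matching the AP-1 (6.75% of promoters), GAS (7.02%) or glucocorticoid half-site (16.1%) motif were in these 3 windows. The matches overlapped no other motif.

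The authors gave an FPKM (fragments relative to transcript length and to the mapped fragments of the library) for each transcript, and these were summed here per gene. Xcr1 had the highest mean of the 5 genes, 0.465 FPKM over the 16 mice, followed by Fasl with 0.405, Ccl4 with 0.187, Il12rb1 with 0.171 and Il12b with 0.165. Among the 2749 Ensembl genes with a mean of at least 0.1 FPKM, which were the genes tested, they ranked 399, 536, 1608, 1767 and 1827. Ensembl genes held 0.114% of all FPKM and reached a mean of 4.05 FPKM at most, since nearly all signal lies in 28335 assembled loci that the files do not name. Whether such a locus also covers one of the 5 genes cannot be read from the files, so each value is that of the named rows alone.

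The reads behind these values were few. The most common product of FPKM and length within a preset window, in single-exon genes, was taken as 1 read. It gave about 35000000 to 55800000 reads per mouse, an estimate made from the values and not from read counts. Smaller products were also listed, so this unit is an assumption on which all read numbers here rest. At that depth Xcr1 rested on 49 to 114 reads per mouse, with a median of 92. Ccl4 rested on 0 to 19 reads with a median of 4, and Il12b on 0 to 33 with a median of 12 if its reads came from the longer transcript. On the same reading Fasl rested on at most 57 reads and Il12rb1 on at most 34. A count of 0 over both lanes allows up to 3 reads, which is 0.0815 to 0.130 FPKM for Ccl4 and 0.0277 to 0.0441 FPKM for Il12b, and this covers counting error only.

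Some zeros may also be failed estimates. Among genes with 1 transcript and at least 5 reads in one lane, the other lane was listed at 0 in 16.1% of cases for genes of 2 or more exons and in 2.33% for single-exon genes. At 10 reads these shares were 4.28% and 0.358%, and at 20 reads 0.388% and 0%. Xcr1 was above 0 in all 32 libraries and Fasl in 31, against 24 for Il12rb1, 20 for Il12b and 13 for Ccl4. The lanes of a mouse correlated with r = 0.70 for Xcr1, 0.64 for Il12b and 0.63 for Fasl, but with r = -0.06 for Il12rb1 and -0.04 for Ccl4 (Pearson, over 16 mice that differ in group, given as a description). Ccl4 was above 0 in both lanes in 2 mice only, in 1 lane in 9 and in neither in 5.

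**Figure D1:**
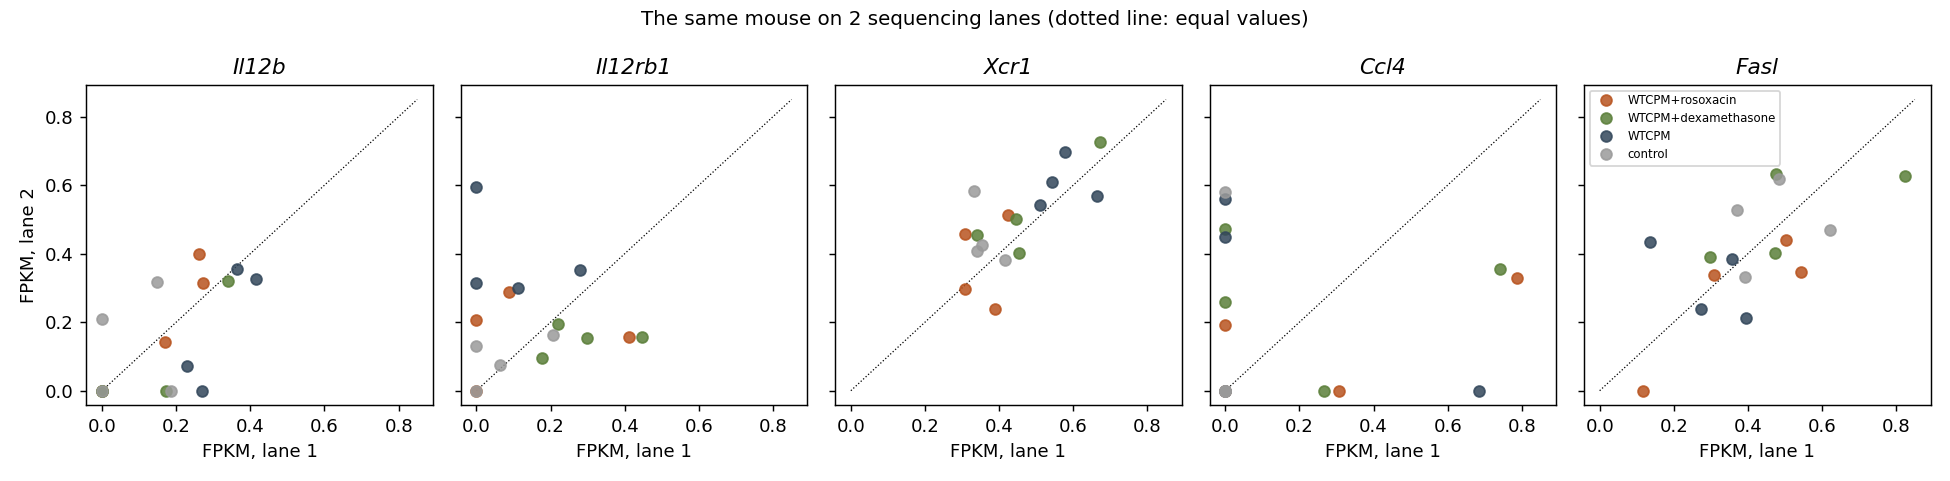
FPKM of each gene in lane 1 (horizontal axis) and lane 2 (vertical axis) of the same mouse, 1 point per mouse, coloured by group, with a dotted line of equal values. Xcr1 points lie along the line, whereas 9 mice have Ccl4 above 0 in 1 lane and at 0 in the other.

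The 5 genes were compared between groups with limma on log2(FPKM + 0.1), fitted over all 2749 genes with the p-values adjusted over all of them. With WTCPM against control, 4 of the 5 had the higher mean in WTCPM lungs and Fasl the lower. None passed an adjusted p of 0.05 by limma, which 0% of all genes tested passed, and 2 of the 5, Il12rb1 and Xcr1, had an unadjusted p under 0.05, as did 5.13% of all genes. The median log2 change of the 5 was 0.82, against 0.03 over all genes tested. Because the 5 genes were chosen with earlier results of these data known, their medians and shares beside all genes, here and below, are descriptions only. Adding 0.1 to every value shrinks the log2 difference between any 2 values at such low levels. The log2 changes compare means of logs, so they need not match the ratio of the mean FPKM.

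Xcr1, the receptor of conventional type 1 dendritic cells, was the one gene of the 5 whose WTCPM and control mice did not overlap. Its level was 0.615, 0.637, 0.526 and 0.576 FPKM in the 4 WTCPM lungs, against 0.374, 0.399, 0.458 and 0.390 FPKM in the 4 control lungs. By the mean of its lanes, every WTCPM mouse lay above every control mouse, a separation in this direction that 1.86% of all genes tested showed. Single lanes overlapped. The third control mouse was at 0.331 FPKM in lane 1 and 0.584 in lane 2, and the WTCPM lanes ran from 0.509 to 0.696 FPKM. The log2 change was 0.55 with lane 1 alone and 0.36 with lane 2 alone. The means were 0.588 ± 0.0488 FPKM in WTCPM and 0.405 ± 0.0364 FPKM in control mice (SD, n = 4 each), a log2 change of 0.45 (SE 0.19) with an adjusted p of 0.854 by limma. With a pseudocount of 1 FPKM in place of 0.1 the change was 0.18. The reads behind them, before scaling to depth, were about 87.7 to 113 per mouse in WTCPM and 66.9 to 114 in control lungs, and these ranges overlapped.

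Il12rb1, the receptor chain for p40 cytokines, was at 0.297, 0.158, 0.316 and 0.207 FPKM in WTCPM lungs, against 0.0650, 0.185, 0.0682 and 0 FPKM in control lungs. Only the second control mouse reached into the WTCPM range. The log2 change was 1.01 (SE 0.38, adjusted p = 0.740 by limma). The change was 1.41 with lane 2 alone and 0.17 with lane 1 alone. The first 2 WTCPM mice were listed at 0 in lane 1 and at 0.593 and 0.316 FPKM in lane 2.

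Il12b, the p40 subunit itself, was at 0.370, 0.135, 0.361 and 0.150 FPKM in WTCPM lungs, against 0, 0.104, 0.233 and 0.0932 FPKM in control lungs. WTCPM mice 1 and 3 stood above all control mice, and the other two lay among them. The log2 change was 0.82 (SE 0.53, adjusted p = 0.903 by limma). It was 1.34 with lane 1 alone, 0.34 with lane 2 alone and 0.51 without the first control mouse.

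Ccl4, the chemokine, was at 0.343, 0.224, 0 and 0.280 FPKM in WTCPM lungs, against 0.290, 0, 0 and 0 FPKM in control lungs. The first control mouse carried all the control signal, which was about 9 reads on lane 2 and none on lane 1. The log2 change was 0.95 (SE 0.60, adjusted p = 0.894 by limma), and 1.44 without that mouse.

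Fasl, the effector ligand, was at 0.304, 0.370, 0.286 and 0.256 FPKM in WTCPM lungs, against 0.361, 0.544, 0.448 and 0.550 FPKM in control lungs. Only the second WTCPM mouse exceeded the lowest control value. The means were 0.304 ± 0.0486 FPKM in WTCPM and 0.476 ± 0.0896 FPKM in control mice (SD, n = 4 each), a log2 change of -0.51 (SE 0.33, adjusted p = 0.903 by limma). In whole lung, fewer cells that express a gene and less of its RNA per cell cannot be told apart.

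**Figure D2:**
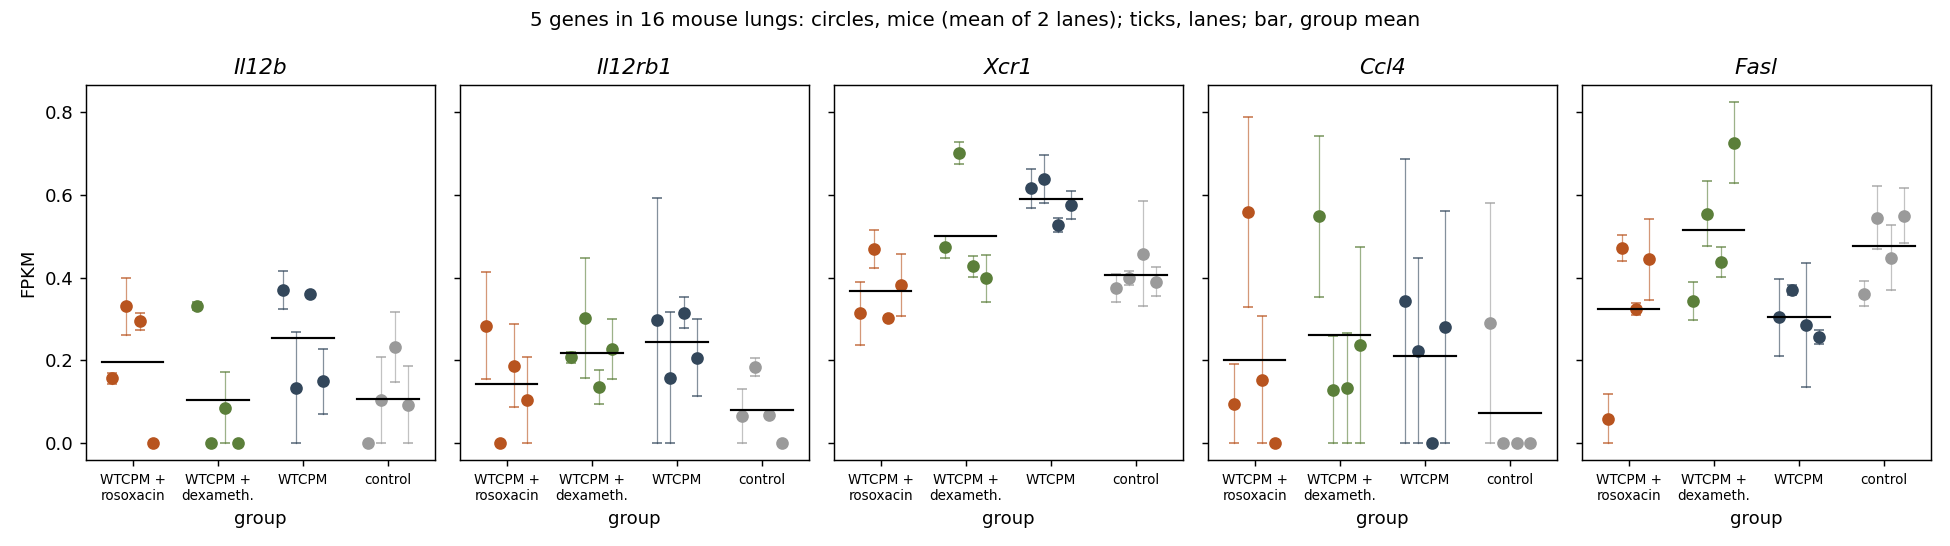
FPKM of the 5 genes (vertical axis) in the 4 groups (horizontal axis), with circles for mice (mean of 2 lanes), small ticks joined by a line for the lanes and a bar for the group mean. All 4 WTCPM mice lie above all 4 control mice and all 4 rosoxacin mice for Xcr1, while the lanes of a mouse reach far apart for Ccl4.

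With WTCPM and rosoxacin against WTCPM alone, all 5 genes had the lower log2 mean in the rosoxacin lungs, although for Fasl the mean FPKM was higher there, 0.325 with rosoxacin and 0.304 in WTCPM mice. The median log2 change of the 5 was -0.39, but that of all genes tested was also below 0, at -0.16. None of the 5 passed an adjusted p of 0.05, which 0.546% of all genes passed, and Xcr1 alone had an unadjusted p under 0.05, as did 15.7% of all genes. Fitted with the unnamed loci added, 5690 of 27230 features passed, none of them a member, and the adjusted p of Xcr1 was 0.0659 by limma. The total FPKM of a mouse was 924277 to 1329954 in the rosoxacin group, against 742168 to 803130 in WTCPM, so the scale of the values differed between these groups. In the labels the rosoxacin mice also carried the S numbers 1 to 4, which no other group shares. They are called library numbers here, although the labels do not say what they count. Drug and library number therefore cannot be told apart by group. With library number as a covariate, the Xcr1 change was -0.57 with an adjusted p of 0.286 by limma. Of all genes tested 3 then passed the adjusted threshold, in place of 15.

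Xcr1 was at 0.314, 0.469, 0.301 and 0.383 FPKM in the rosoxacin lungs, below every WTCPM mouse, the lowest of which had 0.526 FPKM. Such a separation, all 4 mice lower, was found for 8.95% of all genes tested. By single lanes the groups met, with a highest rosoxacin lane of 0.514 FPKM and a lowest WTCPM lane of 0.509 FPKM. The mean was 0.367 ± 0.0769 FPKM with rosoxacin and 0.588 ± 0.0488 FPKM in WTCPM mice (SD, n = 4 each), and the log2 change was -0.57 (SE 0.19, unadjusted p = 0.0074, adjusted p = 0.146 by limma). Relative to the median of all genes it was -0.41. Both Xcr1 differences, against control and against rosoxacin lungs, rest on the same 4 WTCPM mice. About 49.0 to 80.3 reads per mouse lay behind the rosoxacin values, against 87.7 to 113 in WTCPM mice.

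The call for Xcr1 depended on the scaling. Rescaled to TPM, so that every library sums to the same total, the log2 change was -0.95 with an adjusted p of 0.0233 by limma. Under that scaling the median of all genes was -0.46 and 270 genes passed, of which 3 were higher with rosoxacin. With median-of-ratios scaling, under which the median of all genes was -0.01, the change was -0.38 with an adjusted p of 0.365, and with a pseudocount of 1 FPKM it was -0.22 with an adjusted p of 0.175.

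**Figure D3:**
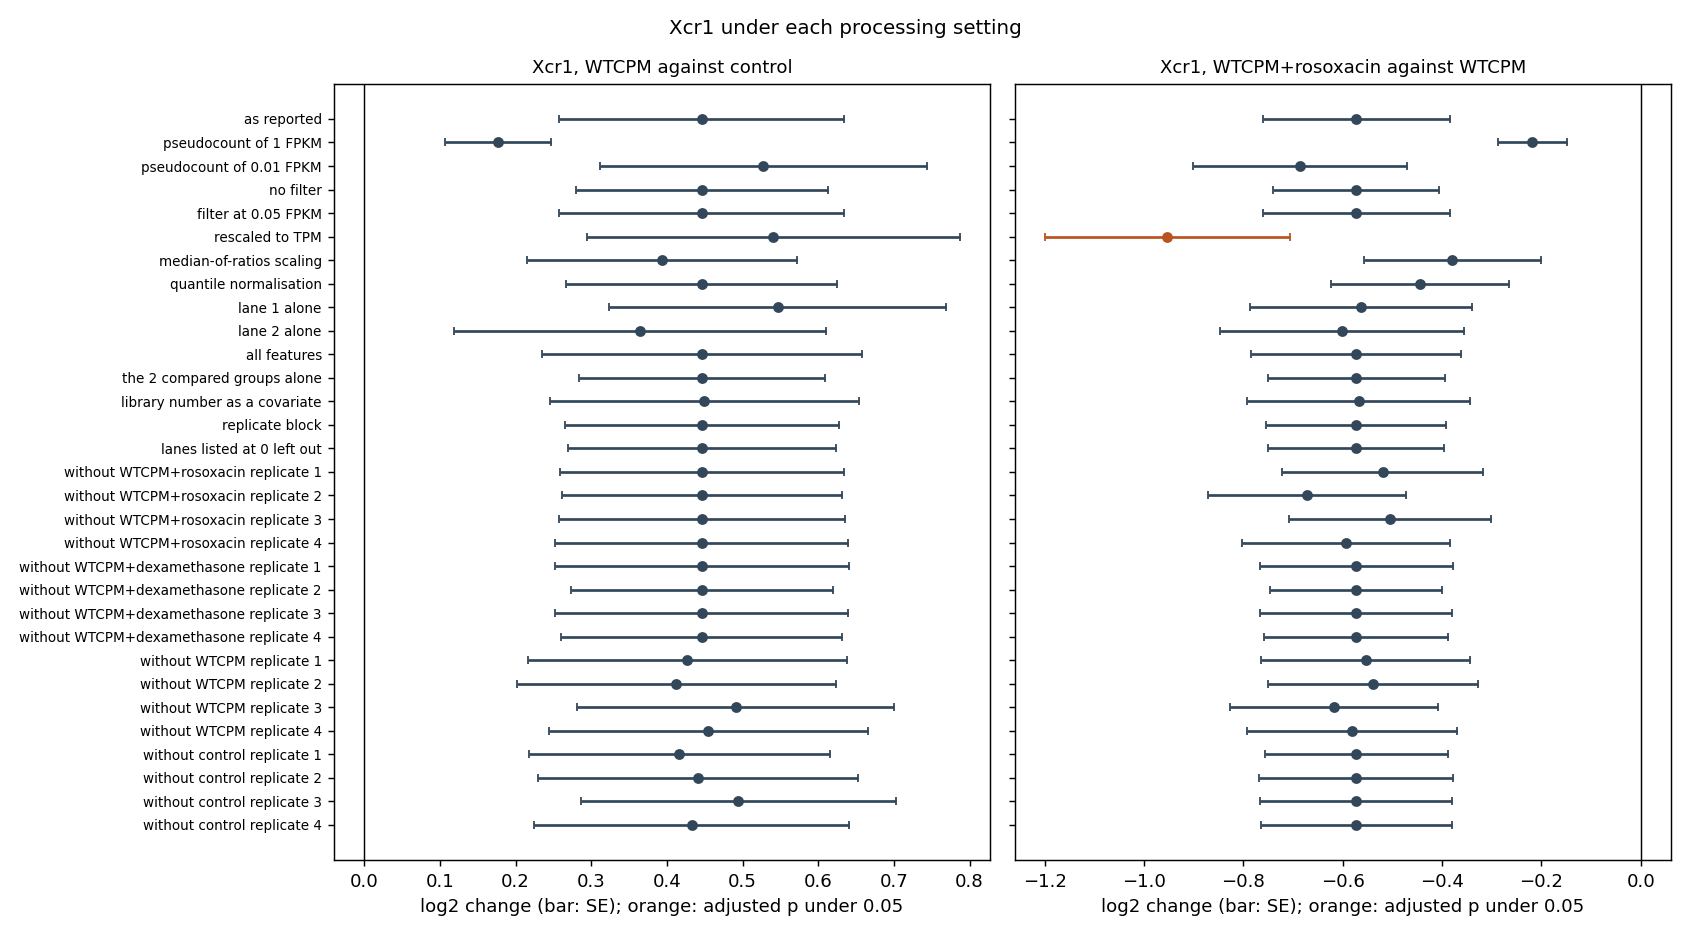
Log2 change of Xcr1 with its SE (horizontal axis) under each processing setting (vertical axis), for WTCPM against control on the left and WTCPM+rosoxacin against WTCPM on the right. All points on the left lie above 0 and all on the right below 0, and rescaling to TPM is the only setting with an adjusted p under 0.05 (orange).

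The other members overlapped between the rosoxacin and WTCPM groups. Il12rb1 was at 0.284, 0, 0.187 and 0.104 FPKM with rosoxacin, so that 1 mouse was listed at 0 and mice 1 and 3 stood among the WTCPM mice (log2 change -0.63, SE 0.38, adjusted p = 0.437 by limma). Il12b was at 0.157, 0.331, 0.294 and 0 FPKM with rosoxacin, where the fourth mouse was at 0 in both lanes and the others lay within the WTCPM range (log2 change -0.39, SE 0.53). Without that mouse the Il12b change was 0.07, and with lane 1 alone the Il12rb1 change was 0.06, so neither direction was stable.

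Ccl4 was at 0.0959, 0.557, 0.153 and 0 FPKM with rosoxacin, and the second mouse, with about 14.1 reads, was the highest of all 16 mice (log2 change -0.19, SE 0.60). Fasl was at 0.0590, 0.472, 0.323 and 0.444 FPKM with rosoxacin. The first mouse was the lowest of all 16, and mice 2 and 4 stood above every WTCPM mouse (log2 change -0.08, SE 0.33). The direction for Fasl turned under 5 other settings that kept all mice, median-of-ratios and quantile scaling among them, and without the first rosoxacin mouse its change was 0.34.

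With WTCPM and dexamethasone against WTCPM alone, 3 of the 5 genes had the lower log2 mean in the dexamethasone lungs and 2 the higher. No member and 0% of all genes tested passed an adjusted p of 0.05 by limma, and no member had an unadjusted p under 0.05, which 5.38% of all genes had. The median log2 change of the 5 was -0.11, against 0.004 over all genes.

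Il12b was at 0.330, 0, 0.0858 and 0 FPKM with dexamethasone, so that 2 mice were at 0 in both lanes and the first stood within the WTCPM range of 0.135 to 0.370 FPKM. Its log2 change of -0.997 (SE 0.53, unadjusted p = 0.0757, adjusted p = 0.951 by limma) was the largest in size among the 5 in this comparison. Fasl was at 0.344, 0.555, 0.438 and 0.725 FPKM with dexamethasone, and 3 of these 4 mice stood above all 4 WTCPM mice. Its means were 0.515 ± 0.164 FPKM with dexamethasone and 0.304 ± 0.0486 FPKM in WTCPM mice (SD, n = 4 each), a log2 change of 0.58 (SE 0.33, adjusted p = 0.951 by limma).

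Xcr1 was at 0.473, 0.700, 0.428 and 0.398 FPKM with dexamethasone, with 3 mice below all WTCPM mice and the second above them all. Its log2 change was -0.22 (SE 0.19). Il12rb1 was at 0.207, 0.302, 0.136 and 0.227 FPKM with dexamethasone and above 0 in all 8 libraries, within or just below the WTCPM range (log2 change -0.11, SE 0.38). Its change was 1.15 with lane 1 alone. Ccl4 was at 0.548, 0.130, 0.133 and 0.237 FPKM with dexamethasone, of which the first was above all WTCPM mice (log2 change 0.27, SE 0.60, and -0.05 without that mouse).

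**Figure D4:**
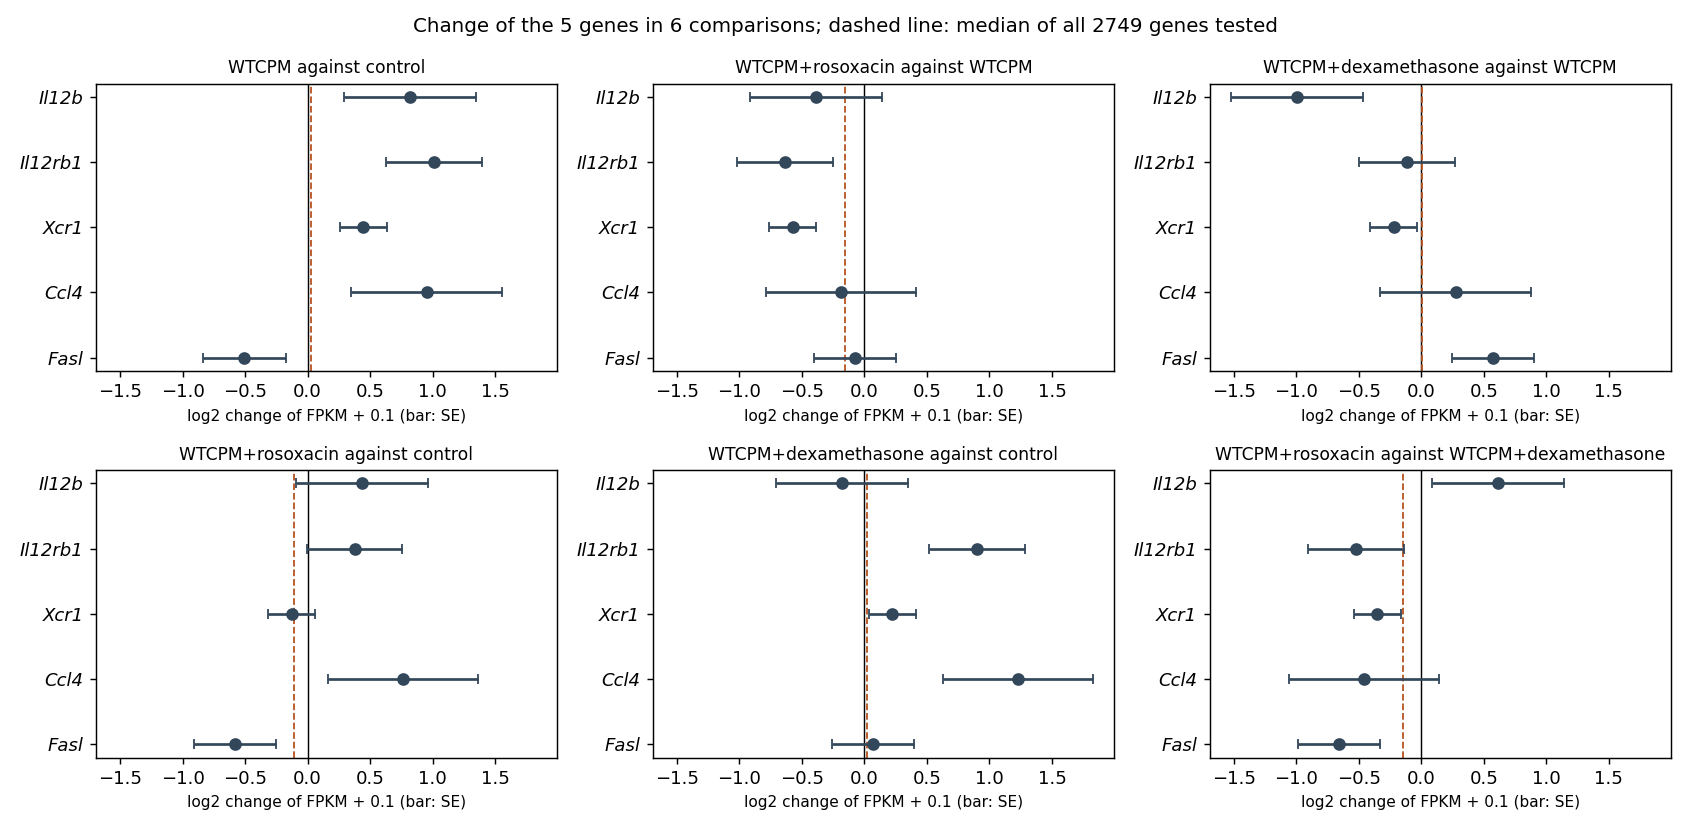
Log2 change of FPKM + 0.1 with its SE (horizontal axis) for the 5 genes (vertical axis) in the 6 comparisons, with the first group of each title over the second and a dashed line at the median of all 2749 genes tested. The error bars of Ccl4 and Il12b are wide, with SEs of 0.60 and 0.53, and that of Xcr1 is the narrowest at 0.19.

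Against the healthy lungs, the rosoxacin group had no member past an adjusted p of 0.05, which 3.31% of all genes passed, and none with an unadjusted p under 0.05, which 19.3% of all genes had. The median log2 change of the 5 was 0.38, against -0.11 over all genes. With the unnamed loci in the fit, 6498 of 27230 features passed, none of them a member. With library number as a covariate 0 of the genes tested passed, in place of 91. The Xcr1 change was -0.13 (SE 0.19) and that of Fasl -0.58 (SE 0.33, adjusted p = 0.360 by limma), or -0.16 without the first rosoxacin mouse. The dexamethasone group had no member past the adjusted threshold, which 0.0364% of all genes passed, and 1 member, Il12rb1, with an unadjusted p under 0.05, which 4.98% of all genes had. Il12rb1 was higher by 0.90 (SE 0.38, adjusted p = 0.882 by limma) and Ccl4 by 1.23 (SE 0.60, adjusted p = 0.977), while Fasl differed by 0.07 (SE 0.33). These comparisons share the control mice with that of WTCPM against control.

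Between the drugs, rosoxacin against dexamethasone, 4 of the 5 genes had the lower mean with rosoxacin and Il12b the higher. No member passed an adjusted p of 0.05, which 4.26% of all genes passed, and none had an unadjusted p under 0.05, which 20.7% of all genes had. The median log2 change of the 5 was -0.46, against -0.15 over all genes. With the unnamed loci in the fit, 8030 of 27230 features passed, none of them a member. With library number as a covariate 0 of the genes tested passed, in place of 117. The log2 changes were -0.66 for Fasl (SE 0.33, adjusted p = 0.270 by limma), -0.52 for Il12rb1, -0.46 for Ccl4, -0.35 for Xcr1 and 0.61 for Il12b. Without the first rosoxacin mouse the Fasl change was -0.24. The drugs were given at different doses and to different mice.

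The order of the group means differed from gene to gene. Xcr1 was highest in WTCPM lungs, followed by dexamethasone, control and rosoxacin lungs. Il12rb1 and Il12b were also highest in WTCPM lungs. Ccl4 and Fasl were highest with dexamethasone. By mean FPKM Fasl alone was lowest in WTCPM lungs, at 0.304 against 0.325 FPKM with rosoxacin. On the log2 scale of the tests Fasl was lowest with rosoxacin (log2 change against WTCPM -0.08). No pair of neighbours in any of these orders differed past the adjusted threshold of limma.

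Correlations between the members were low. They cannot show that the genes vary apart, since Il12rb1 and Ccl4 did not correlate with themselves between lanes (r = -0.06 and -0.04). Over the 16 mice their pairwise correlations on the log2 scale ran from -0.39 to 0.28, and from -0.48 to 0.34 after the group means were removed, in mice that share library preparation and depth across genes. Il12b reads fell mainly on 1 of its 2 transcript rows, with 87.1% of its FPKM. Il12rb1 was spread over 3 of its 6 rows, with 76.7%, 13.6% and 9.71% of its FPKM. All Fasl FPKM lay in 1 of 2 rows, and the files do not name the transcript behind a row.

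The genes whose levels ran most like each member over the 16 mice are given as a description. For Xcr1 they were Ercc6l (r = 0.80), Lrrc4c (r = 0.79) and Arsj (r = 0.76), and for Fasl they were Samd3 (r = 0.81), Apol11b (r = 0.79) and Slc16a5 (r = 0.77). For Il12b they were Snhg14 (r = 0.73), Hebp2 (r = 0.70) and Slc1a2 (r = 0.68), and for Il12rb1 Scg5 (r = 0.75), Cstad (r = 0.70) and Smim10l2a (r = 0.68). Ccl4 ran most like Acod1 (r = 0.75), the enzyme that makes itaconate in activated macrophages, Cxcl2 (r = 0.69), a neutrophil chemokine, and Scn4a (r = 0.65). These are the highest correlations picked among the named genes tested, and all points share the depth of their libraries. How high such picks run by chance over 16 mice was not tested. Ccl4 and Il12rb1 did not correlate with themselves between lanes (r = -0.04 and -0.06), so their neighbours are the least certain.

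Other genes of the axis were sparse under their own names. Of 22 genes of the interleukin 12 and interferon gamma axis, 5 had an identifier of their own and 3 were tested, Il12b, Il12rb1 and Il23r, while Il23a and Ifng had means under 0.1 FPKM over the 16 mice and were not tested. Ifng, the cytokine itself, was at 0.0804, 0.0432, 0.0632 and 0.0807 FPKM with rosoxacin, against 0.0424, 0.0416, 0 and 0 FPKM in WTCPM lungs. The lowest rosoxacin and the highest WTCPM value nearly met, at levels under the filter. Ifng ranged from 0.0322 to 0.142 FPKM with dexamethasone and from 0 to 0.0637 FPKM in control lungs. Of 13 type 1 chemokines and receptors, Ccl4 and Xcr1 had an identifier. Il23r, the specific receptor chain for interleukin 23, was at 0.0862 to 0.167 FPKM with dexamethasone, above the control range of 0 to 0.0804 FPKM (log2 change 0.81, SE 0.37, adjusted p = 0.953 by limma). For dexamethasone against control, 1.35% of all genes tested had all 4 mice higher.

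Of 14 markers of conventional type 1 dendritic cells, Xcr1 alone had an identifier, and of 12 markers of other dendritic cells none had one, so that no second marker was at hand to set beside Xcr1. Of 18 genes of NK and cytotoxic lymphocytes, Fasl and Klrg1 were tested and Crtam was under the filter. Klrg1, a receptor of mature NK and effector T cells, was at 0.199 to 0.523 FPKM with dexamethasone, above the control range of 0.0763 to 0.135 FPKM in all 4 mice (log2 change 1.00, SE 0.41, adjusted p = 0.882 by limma). With rosoxacin 2 mice had no Klrg1 signal (log2 change against WTCPM -0.91, SE 0.41, adjusted p = 0.279). Crtam, a receptor of activated NK and CD8 T cells, averaged 0.0597 FPKM with rosoxacin and 0.0526 FPKM in WTCPM mice and was not tested.

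Of 15 T cell genes, Il2, Icos and Cd40lg were tested. Il2, the T cell growth factor, was listed at 0 in all 4 rosoxacin mice, against 1 of 4 WTCPM mice, in which the highest was 0.353 FPKM (adjusted p = 0.262 by limma). It was at 0 in 8 of the 16 mice, among them 2 dexamethasone mice and 1 control mouse. The reads behind it were not estimated. Icos, a costimulatory receptor, averaged 0.447 ± 0.0721 FPKM in WTCPM and 0.447 ± 0.0842 FPKM in control lungs (SD, n = 4 each). Cd40lg, with which T cells license dendritic cells, was at 0.0434 to 0.278 FPKM in WTCPM lungs and 0.0668 to 0.186 FPKM in control lungs. For rosoxacin against WTCPM, the log2 change was 0.11 (SE 0.22, adjusted p = 0.870 by limma) for Icos and -0.10 (SE 0.38, adjusted p = 0.936) for Cd40lg. None of Il23r, Klrg1, Il2, Icos and Cd40lg passed an adjusted p of 0.05 in any of the 6 comparisons. Of 10 genes of death receptor signalling, Fasl alone had an identifier.

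**Figure D5:**
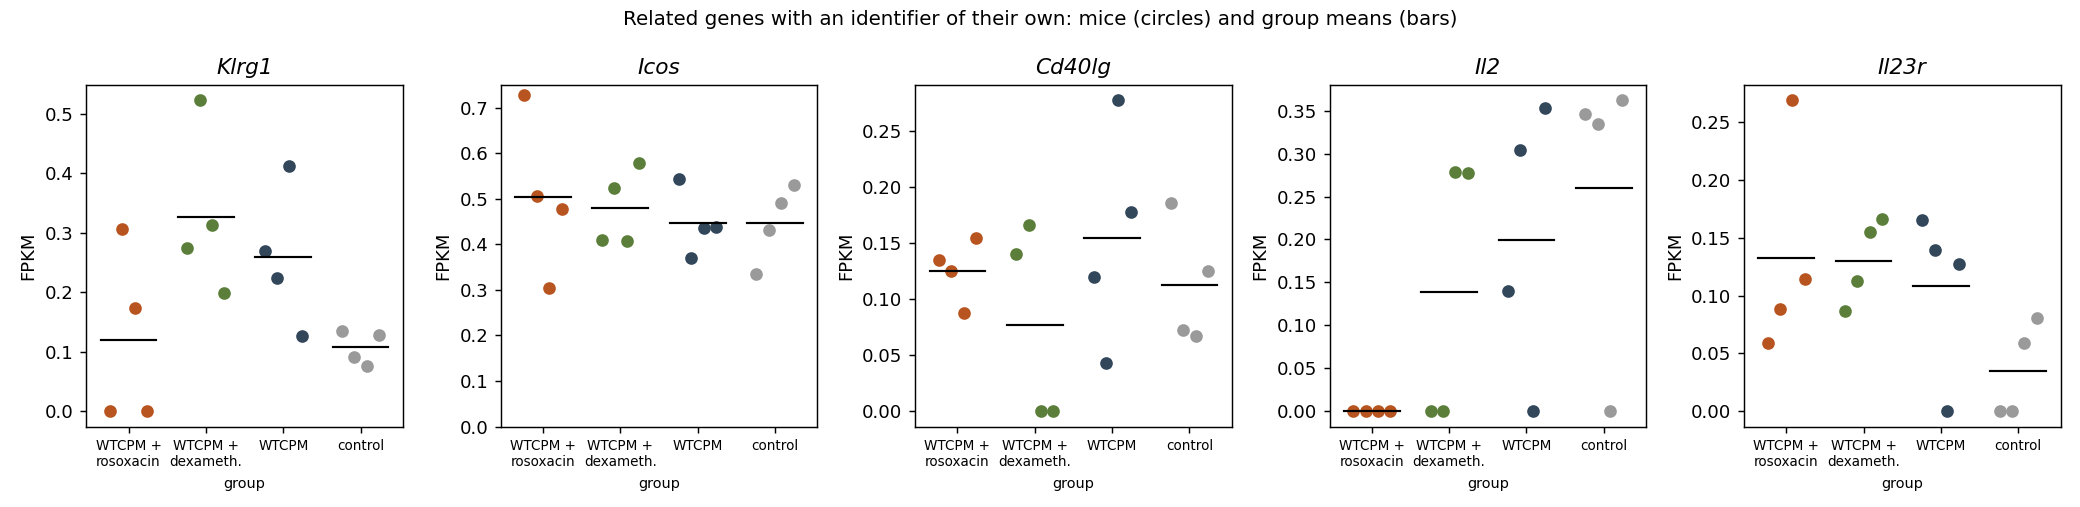
FPKM (vertical axis) of 5 related genes in the 4 groups (horizontal axis), with circles for mice and a bar for the group mean. Il2 is at 0 in 8 of the 16 mice, among them all 4 rosoxacin mice, and the 4 dexamethasone mice lie above the 4 control mice for Klrg1 and Il23r.

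Markers of other lung cells were nearly all without a name of their own. None of 8 macrophage, 6 B cell, 10 lung epithelium and 6 fibroblast genes had an identifier, so the labelled tissue could not be checked against them. Among 6 endothelial genes Prox1, a marker of lymphatic vessels, was at 0.394 to 0.600 FPKM in WTCPM and 0.137 to 0.537 FPKM in control lungs (adjusted p = 0.894 by limma). Of 9 neutrophil genes 4 had an identifier, and Mpo was listed at 0 in all 16 mice, Elane in 15 and Ly6g in 13, while Cxcr2 was tested. Cxcr2 was at 0.8288 to 1.61 FPKM with dexamethasone, against 0.366 to 0.599 FPKM in WTCPM mice, with no overlap (log2 change 0.97, SE 0.30, adjusted p = 0.631 by limma), and 1.75% of all genes tested had all 4 mice higher in that comparison. With rosoxacin it was at 0.651 to 1.37 FPKM, also above all 4 WTCPM mice, as were 2.18% of all genes tested (log2 change 0.59, SE 0.30, adjusted p = 0.341). The next rosoxacin mouse below 1.37 FPKM had 0.737 FPKM. Cxcr2 passed the adjusted threshold in neither comparison, and its part in the levels of the 5 genes was not tested.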

How the data were processed

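Lung RNA of 16 mice was sequenced on 2 lanes each, giving 32 libraries. The authors deposited FPKM per transcript for 186512 transcripts in 1 table, which 32 per-library files repeat. The submitters' processing notes name StringTie 2.1.5, HISAT2 2.2.1 and HISAT, SAMtools 1.12, R 4.0.4, FastQC and the mm10 build. The sources used here do not give how they were run or with which annotation. FPKM were summed per gene and lanes averaged per mouse. Symbols came from GENCODE release M21, which matched 25424 of 26305 Ensembl genes. All 2749 Ensembl genes with a mean of at least 0.1 FPKM were fitted with limma 3.58.1 in R 4.3.3 (lmFit, contrasts, eBayes with trend) on log2(FPKM + 0.1), with the 4 groups in 1 fit, 6 comparisons and Benjamini-Hochberg adjustment over all genes, and the procedure was tested on simulated data. Depth, about 17400000 to 28000000 reads per library, was inferred from products of FPKM and length in single-exon genes. The most common product within a preset window was taken as 1 read, although smaller products were also listed.

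The members, the lists of related genes and the tests were chosen with earlier results of these data known. The text names the 5 genes, every tested gene of the lists, from which 1 further gene was taken off and is not reported here, listed genes under 0.1 FPKM in counts or by name, and per member the 3 genes most correlated with it, leaving out predicted genes and variable segments. Alternatives were other pseudocounts, filters and scalings, single lanes, all features, the compared groups alone, library number as a covariate, a replicate block and each mouse left out. Leaving out lanes listed at 0 was added after the data were seen. Same-numbered mice of different groups were not paired: of 24 pairs, 4 had correlated deviations above 0.1. Promoter sequences came from RefSeq (GRCm38.p6). Figures were drawn with matplotlib in Python.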

Additional observations from a re-analysis of the deposited data

Results flagged for a closer look

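In the control group 1 mouse stood apart for Ccl4, at 0.29 FPKM against 0 in the other three, whose gap fills the whole range of the group. For Cxcr2 1 rosoxacin mouse stood apart at 1.374 FPKM, where the next had 0.737 FPKM. For Il2 1 control mouse was listed at 0, where the next had 0.334 FPKM. A sample this far from its group was found in 3 of 47 sets of 4 mice, over the 5 genes and the related genes tested. Chance gives about 1 in 20 for normally distributed values, a rate that does not hold for sets with values listed at 0, as for Ccl4 and Il2.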

How the results depend on the processing

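Over 30 settings and 30 pairs of a gene and a comparison, 874 of 900 values kept their direction and their side of the threshold, 25 changed direction and 1 passed the threshold. Many of these values could not change direction, so the tally overstates stability. Other filters, all features, the compared groups alone and the replicate block leave the log2 change as it was. Leaving out a mouse from a group outside the comparison does so too. The count of members past the adjusted threshold was 0 in all 6 comparisons under every setting, except for rosoxacin against WTCPM rescaled to TPM, where it was 1, Xcr1. The changes of direction were as follows, on the log2 scale. For rosoxacin against WTCPM, Fasl was at 0.012 with a pseudocount of 1 FPKM, 0.071 with median-of-ratios scaling, 0.065 with quantile normalisation, 0.20 with lane 1 alone and 0.035 with lanes at 0 left out. With lane 1 alone Il12rb1 was at 0.062 and Ccl4 at 0.55, and with lane 2 alone Il12b was at 0.15. For dexamethasone against WTCPM, Il12rb1 was at 1.15 with lane 1 alone. For rosoxacin against control, Xcr1 was at 0.014 with median-of-ratios scaling and 0.0014 with quantile normalisation. With lane 1 alone Il12b was at 0.19 for dexamethasone against control, and Ccl4 at 0.057 for rosoxacin against dexamethasone. The cause was not tested.

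With each mouse left out in turn, the ranges that crossed 0 were, for rosoxacin against WTCPM, -0.67 to 0.23 for Ccl4, -0.27 to 0.34 for Fasl and -0.63 to 0.069 for Il12b. For dexamethasone against WTCPM they were -0.21 to 0.51 for Ccl4 and -0.24 to 0.023 for Il12rb1, and for dexamethasone against control -0.63 to 0.090 for Il12b and -0.083 to 0.22 for Fasl. With a replicate block, which the data do not show to pair the mice, Xcr1 had an adjusted p of 0.135 for rosoxacin against WTCPM and 0.756 for WTCPM against control, and the block changed no call. The adjusted p of Xcr1 was 0.693 to 0.995 over all settings for WTCPM against control. Depth limits Ccl4 and Il12b, with medians of 4 and 12 reads per mouse.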
